A study of Mus musculus with 9 samples.

Results

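The colon transcriptome of mice given dextran sodium sulfate (DSS) together with electroacupuncture (EA) was compared with that of mice given DSS alone. The comparison took the 3 count columns of the DSS + EA group and the 3 of the DSS group, which are 6 of the 9 libraries deposited, and all genes of the table were used. All 9 animals were C57BL/6J mice. The control mice drank distilled water, and both groups compared here drank 2.5% DSS for 7 days, so that colitis induction was shared and EA was the difference between them. After 5 days of modeling the DSS + EA mice were held in a frame and needled at the ST36 point of both hind limbs once a day for 5 days, for 30 minutes at 2 Hz and 0.2 mA. The sources used here do not say which segment of the colon was taken or at what hour. By the methods of the study, the DSS and control mice were also restrained for 30 minutes but got no EA, so restraint was shared by the groups. Needles without current and needles at another point were not analysed here, so the part of the current and that of the needles cannot be told apart. Total RNA was reverse transcribed to full length, PCR-amplified and read on an Oxford Nanopore instrument. Of 27719 genes in the table, 12566 had enough counts to be tested.

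DSS damages the epithelium that lines the colon. Behind the lining, bacteria meet the lamina propria, neutrophils and monocytes leave the vessels, and fibroblasts and proteases rebuild the matrix, while the surviving crypts replace absorptive colonocytes and mucus-secreting goblet cells. Colonocytes live largely on butyrate, which they oxidise in mitochondria, and epithelial interferon, MHC class II and inflammasome genes change with the bacteria and the immune cells they face. ST36 is a point on the hind limb whose stimulation is used against gut inflammation, and vagal and adrenal routes from this point to immune cells have been described.

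Genes were described in 47 lists, 23 of cell compartments and 24 of pathways. A gene was called where the Benjamini-Hochberg adjusted p of the edgeR quasi-likelihood test over all genes was under 0.05, and "rose", "fell", "higher" and "lower" refer to DSS + EA against DSS. Over all genes, 35.5% were called, 17.2% higher and 18.3% lower. The stricter set of differentially expressed genes (DEGs), with a log2 fold change beyond 2.5 and an unadjusted P under 0.01, held 2.91% higher and 3.5% lower. The median log2 fold change over all genes was -0.02. The 3 values of each group did not overlap in 47.4% of the genes, and all 3 DSS + EA mice lay above the 6 DSS and control mice in 5.24% and below them in 2.84%. Levels are CPM, counts scaled to a shared library size by TMM-adjusted totals. A permutation of 3 mice against 3 cannot give a p below 0.1, so single genes were judged only in the fit across genes. In bulk tissue, fewer cells of a type and less RNA per cell cannot be told apart, and this holds for every list below.

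DSS mouse 1 and the pancreatic genes of the DSS + EA mice stood apart. On the first principal component of the 6 libraries, which held 67.7% of the variance, DSS mouse 1 lay at -33.6, DSS mice 2 and 3 at -84.7 and -90.7, and all DSS + EA libraries from 64.0 to 73.7. DSS mouse 1 also had the highest epithelial and the lowest neutrophil levels of its group, and results that rest on it are given without it. All 17 pancreatic acinar genes tested were called higher. In 11 of them every DSS mouse had at most 3 counts. Such genes can pass the filter on low counts through their level in another group, and could hardly have been called lower. The number of calls is therefore a description and not support. The summed level of the list was 842, 50898 and 22274 CPM in DSS + EA mice 1 to 3, against 17.2 to 81.1 CPM in the DSS mice. *Prss2*, which encodes a trypsinogen, reached 73.4, 5185 and 2687 CPM with EA and at most 0.643 CPM in the other 6 mice, at least 3112-fold higher than DSS. *Reg1* was picked after its values were seen, and it followed the same mice with 41.4, 3718 and 2469 CPM against 0 to 1.93 CPM in DSS. The control mice had 789 to 2705 CPM for the list, most of it *Clps*, *Sycn* and *Pnliprp2*, while *Cpa1* and *Cela2a* had at most 1 count. The part of pancreatic RNA in other results was not tested. No other list held any of these genes.

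The promoters of 4 interferon-stimulated genes and of both metallothionein genes are shown first, since the results turn on these sets, which rose and fell. The sequences are from RefSeq on GRCm38.p6 (the build called mm10 in the processing notes of the labels) and run 5′ to 3′ on the strand of the gene, from 250 bases before to 50 bases after the most upstream start. Capitals in the first 4 mark the core of the interferon-stimulated response element, 2 copies of GAAA with 2 bases of any kind between them, on either strand. It was found in 3.49% of all 27025 promoters of the table. *Isg15* has 3 overlapping matches that begin 78 to 66 bases before the start, *Ifit1* has 2 at 104 and 85 bases, *Gbp2* has 1 at 59 bases, and *Irf7* has none in this window. The windows are chr4:156200769-156201068 on the minus strand for *Isg15*, chr19:34640639-34640938 on the plus strand for *Ifit1*, chr3:142620413-142620712 on the plus strand for *Gbp2* and chr7:141266375-141266674 on the minus strand for *Irf7*.
Isg15: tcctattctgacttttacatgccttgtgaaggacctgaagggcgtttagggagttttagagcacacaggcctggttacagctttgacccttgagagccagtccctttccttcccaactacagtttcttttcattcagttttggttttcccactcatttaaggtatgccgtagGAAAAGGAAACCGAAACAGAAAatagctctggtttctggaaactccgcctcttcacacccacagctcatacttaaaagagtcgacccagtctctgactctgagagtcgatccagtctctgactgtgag
Ifit1: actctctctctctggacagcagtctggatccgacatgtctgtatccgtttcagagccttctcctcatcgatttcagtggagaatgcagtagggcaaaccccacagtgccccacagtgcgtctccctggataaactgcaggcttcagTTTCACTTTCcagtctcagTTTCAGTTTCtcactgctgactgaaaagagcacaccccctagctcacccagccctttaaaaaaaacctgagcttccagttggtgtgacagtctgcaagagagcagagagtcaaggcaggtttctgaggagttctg
Gbp2: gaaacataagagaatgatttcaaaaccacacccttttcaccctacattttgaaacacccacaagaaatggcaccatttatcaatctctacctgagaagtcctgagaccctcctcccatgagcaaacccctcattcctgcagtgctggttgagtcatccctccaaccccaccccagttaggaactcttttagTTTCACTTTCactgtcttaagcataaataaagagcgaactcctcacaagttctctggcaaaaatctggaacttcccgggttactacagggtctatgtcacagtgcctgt
Irf7: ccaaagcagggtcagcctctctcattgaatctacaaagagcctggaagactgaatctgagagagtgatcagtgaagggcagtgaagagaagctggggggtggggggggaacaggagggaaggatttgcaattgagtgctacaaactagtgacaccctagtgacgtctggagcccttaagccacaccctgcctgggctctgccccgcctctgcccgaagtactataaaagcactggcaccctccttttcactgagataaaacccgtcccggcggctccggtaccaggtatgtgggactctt

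Capitals in *Mt2* and *Mt1* mark the metal response element core, TGCNCNC, on either strand. At 7 letters it is common, and 50.4% of all promoters hold it at least once and 6.93% at least 3 times. *Mt1* holds 3 matches, and *Mt2* holds 6, a number reached in 0.207% of promoters. Both genes lie on the plus strand of chromosome 8, with *Mt2* at chr8:94172368-94172667 and *Mt1* at chr8:94178839-94179138. These matches describe the letters of the windows and not binding.
Mt2: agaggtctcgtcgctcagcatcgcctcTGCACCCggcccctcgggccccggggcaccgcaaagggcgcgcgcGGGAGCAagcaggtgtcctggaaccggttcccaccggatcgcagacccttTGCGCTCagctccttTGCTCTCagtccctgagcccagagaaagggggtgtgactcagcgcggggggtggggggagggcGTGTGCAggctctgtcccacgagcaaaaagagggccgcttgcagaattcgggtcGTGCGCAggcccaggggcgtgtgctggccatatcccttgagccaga
Mt1: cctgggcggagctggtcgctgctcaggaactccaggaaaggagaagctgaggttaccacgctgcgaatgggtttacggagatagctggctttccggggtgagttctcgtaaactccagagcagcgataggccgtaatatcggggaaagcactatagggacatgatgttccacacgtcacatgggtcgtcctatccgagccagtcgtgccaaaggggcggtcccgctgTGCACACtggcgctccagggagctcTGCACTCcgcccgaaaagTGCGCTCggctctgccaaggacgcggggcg

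Genes induced by interferon rose in every DSS + EA mouse. Of the 22 genes of the list, 19 were called higher and 0 lower, with a median log2 fold change of 3.30, against 17.2% of all genes called higher. The 3 DSS + EA mice also lay above all DSS and all control mice in the same number of these genes, 19, against 5.24% of all genes. The summed level was 6125, 4482 and 7401 CPM with EA, 333, 307 and 637 CPM in DSS and 750.4, 1128 and 2196 CPM in the controls. The 3 groups did not overlap in this sum, with DSS lowest and EA highest. DSS + EA mouse 1, with the least pancreatic RNA of its group, lay between the other two. It too had more pancreatic RNA than the DSS mice, 842 CPM against 17.2 to 81.1 CPM. The part of pancreatic RNA in the interferon result was not tested. In each setting tried, including each mouse left out in turn, 19 or 20 of the genes were called higher.

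*Isg15*, a ubiquitin-like protein attached to other proteins in infected cells, stood at 1540.1, 1196 and 1993 CPM with EA, at 22.8, 19.3 and 49.0 CPM in DSS and at 69.1, 181 and 383 CPM in the controls. The fitted rise over DSS was 52.0-fold (log2 fold change 5.70, SE 0.66, n = 3 mice a group, edgeR adjusted p = 0.000512). *Ifit1*, which binds foreign RNA caps, stood at 719, 557 and 834 CPM against 18.3, 12.2 and 30.9 CPM in DSS. Its log2 fold change was 5.11 (edgeR adjusted p = 0.000386). *Irf7*, the transcription factor that amplifies interferon output, was at 678, 533 and 744 CPM against 26.7, 16.3 and 24.3 CPM, and the controls lay between at 151 to 489.8 CPM. Its promoter window above has no match to the motif, and its log2 fold change of 4.86 was of the same order as that of *Ifit1*. *Ifi44* had the largest log2 fold change of the list, 6.73, with 66.1 to 116 CPM against 0.435 to 1.29 CPM.

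The 3 members that were not called were all guanylate-binding proteins, GTPases that attack membranes around bacteria. *Gbp2* stood at 108, 39.2 and 102 CPM against 18.7, 24.1 and 65.2 CPM in DSS (log2 fold change 1.21, edgeR adjusted p = 0.0776), and DSS mouse 3 overlapped DSS + EA mouse 2. Without DSS + EA mouse 2 or without DSS mouse 3 it was called, and its adjusted p ranged from 0.00946 to 0.221 over all settings. *Gbp5* had a log2 fold change of -0.01 and *Gbp6* of 0.39. *Gbp3* of the same family was called higher, at 58.3 to 105 CPM against 7.72 to 20.3 CPM.

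Among the 10 genes with the smallest P of all higher DEGs, 5 are also known as interferon-responsive although the list did not hold them. *Oas1g*, which senses double-stranded RNA, stood at 194, 140.4 and 259 CPM against 9.01, 4.13 and 4.06 CPM in DSS. *Rnf213*, a large ubiquitin ligase, rose by 12.5-fold, *Herc6*, the mouse ligase that attaches *Isg15*, by 15.9-fold, *Trim12c* by 10.2-fold and *Nmi* by 6.36-fold. Each of the 5 had all 3 DSS + EA mice above all 6 others. The ligands were near the limit of detection. *Ifnl3*, an interferon lambda made by epithelium, had 3, 1 and 6 counts in the DSS + EA mice and 0 in the other 6, *Ifnl2* had 1, 2 and 2 against 0 in DSS, and *Ifnb1* had 2, 0 and 0. None of these 3 ligands passed the filter on low counts, and they and the receptors were picked after their values were seen. *Ifng* was not tested either, with 3, 1 and 0 counts against 0, 1 and 0. Of the receptors, *Ifnar1* had a log2 fold change of -1.56 (edgeR adjusted p = 0.0137), a call that was lost without DSS + EA mouse 3. *Ifnar2*, the other chain of the type I receptor, stood at 25.6, 6.72 and 19.3 CPM against 9.33, 89.5 and 154 CPM, with DSS mouse 1 among the DSS + EA mice. It was called lower (log2 fold change -2.28, edgeR adjusted p = 0.0441), a call lost when any 1 of the DSS + EA mice was left out and without DSS mouse 2 or 3. *Ifngr1* was not called at 0.41 (edgeR adjusted p = 0.0887), and was called without DSS mouse 1. *Ifngr2* was not called at 0.60 (edgeR adjusted p = 0.307).

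**Figure D1:**
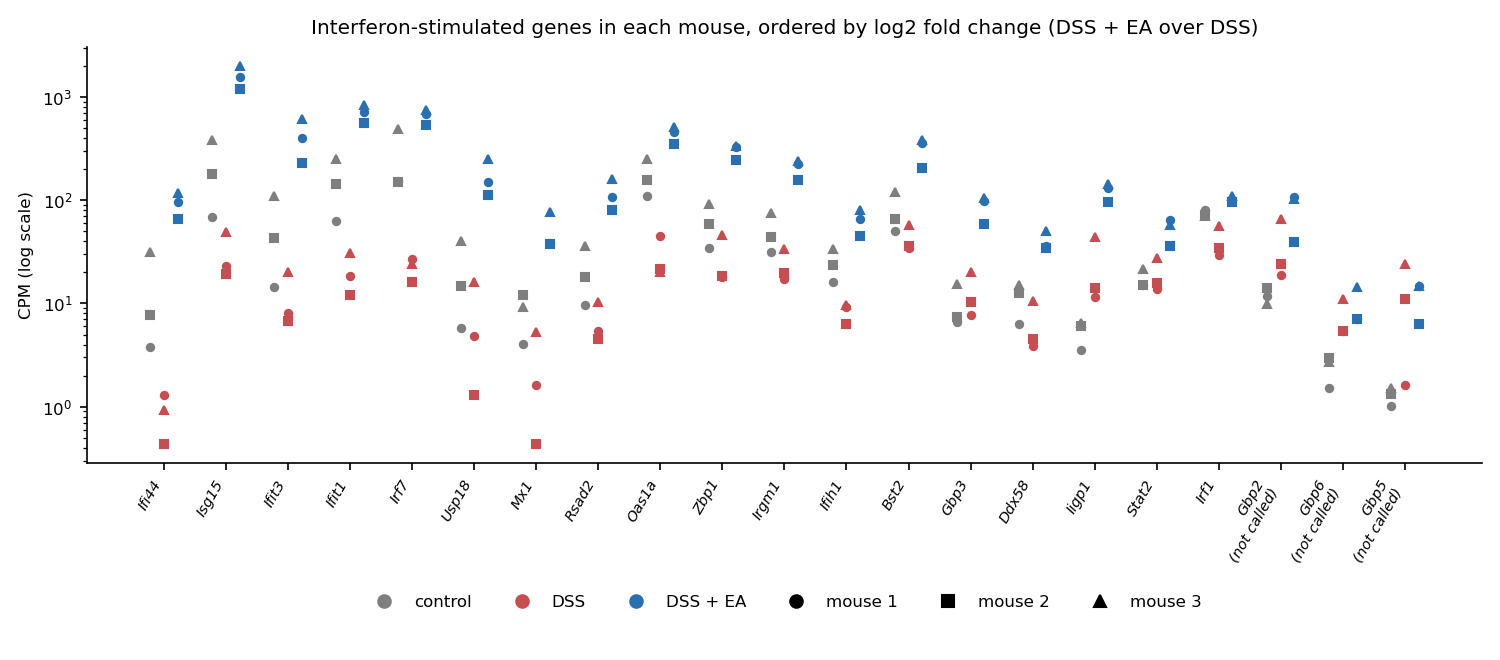
Level of 21 of the interferon-stimulated genes in each mouse, in CPM on a log axis, with genes in the order of their log2 fold change for 3 control, 3 DSS and 3 DSS + EA mice. In 18 of these genes the 3 DSS + EA mice lie above the other 6, and *Gbp2*, *Gbp5* and *Gbp6* are the exceptions.

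Epithelial genes were higher with EA, and both absorptive and mucus-making cells took part. Of 21 goblet cell genes, 14 were called higher and 0 lower (median log2 fold change 2.19), and 12 of 23 surface colonocyte genes were called higher and 0 lower, with a median of 1.92. The summed goblet level was 25442, 27866 and 27005 CPM with EA against 11317, 4062 and 1305 CPM in DSS. The summed colonocyte level was 29048, 32706 and 26193 CPM against 15560, 5425 and 2902 CPM. In both lists the DSS + EA mice lay close together and DSS mouse 1 was nearest to them, and for colonocytes the DSS + EA mice were within the range of the controls, 23670 to 46366 CPM, while for goblet cells they were below the lowest control, 36404 CPM.

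The count of colonocyte genes depended on single mice. It was 19 without DSS mouse 1, 4 without DSS mouse 2, and 6 and 7 without DSS + EA mice 1 and 3, whereas the goblet count stayed between 10 and 18. *Vil1*, the bundling protein of microvilli, was called whichever mouse was left out and stood at 157, 157 and 173 CPM against 70.8, 33 and 18.7 CPM (log2 fold change 1.99, SE 0.39, edgeR adjusted p = 0.00459). *Zg16*, a lectin that holds bacteria off the inner mucus, stood at 5885, 6541 and 6028 CPM against 1602, 968 and 272 CPM (log2 fold change 2.70, SE 0.50, edgeR adjusted p = 0.00341). Every DSS + EA mouse was also above the highest control, 3922 CPM. *Clca1*, a mucus-processing protease, behaved otherwise, since its 554, 359.7 and 436 CPM were above the 4.37 to 95.2 CPM of DSS but far below the 2358 to 6207 CPM of the controls. *Muc2*, the gel-forming mucin itself, stood at 332, 385 and 287 CPM against 197, 60.4 and 8.11 CPM and was not called (edgeR adjusted p = 0.0738). It was called without DSS mouse 1 and without DSS mouse 3.

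**Figure D2:**
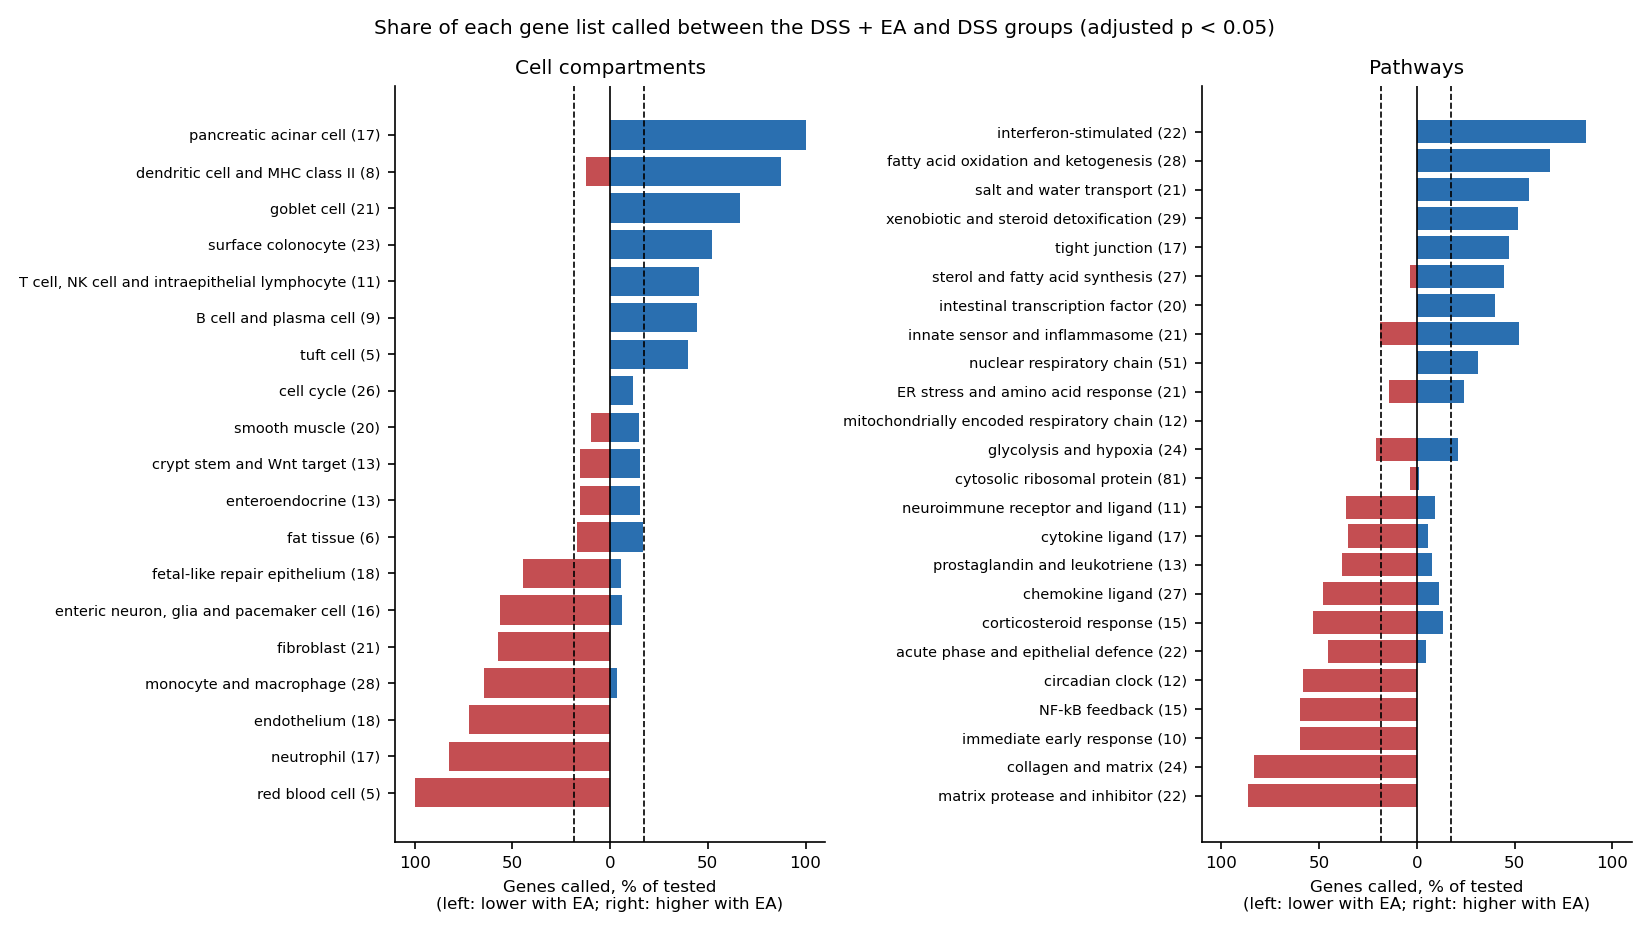
Share of the tested genes of each list called higher (right) and lower (left) with EA, in percent, for lists with at least 5 genes tested; dashed lines mark the shares over all genes, 17.2% and 18.3%. Interferon-stimulated genes stand far to the right, and collagen, matrix protease, neutrophil and endothelial genes far to the left.

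Some transcription factors that set intestinal identity and some tight junction genes were also higher with EA. *Atoh1*, which commits a crypt cell to the secretory fate, had 30.1, 27.3 and 33.3 CPM with EA and 31.6 to 38.7 CPM in the controls, but 2 counts in all of the DSS group, so that it was at least 35.5-fold higher with EA. *Hnf4a*, which maintains absorptive genes, stood at 125, 130.0 and 126 CPM against 50.5, 20.4 and 8.74 CPM (log2 fold change 2.26, edgeR adjusted p = 0.00624), and *Foxa3*, a factor of goblet and endocrine cells, rose by 6.22-fold. Of 20 intestinal transcription factors, 8 (40%) were called higher and 0 lower, against 17.2% of all genes called higher. Among 17 tight junction genes, 8 (47.1%) were called higher and 0 lower. The identity factors *Cdx2* and *Cdx1* and the claudins *Cldn8* and *Cldn4* were not called. Without DSS mouse 1, *Cdx1* and *Cldn8* were called higher, and with DESeq2 *Cdx2* and *Cldn8* were. *Cldn15*, a claudin that forms sodium pores, rose by 7.76-fold, from 21.9, 10.2 and 4.37 CPM to 91.3, 100.1 and 90.7 CPM, and *Cldn2*, likewise a pore-forming claudin, by 3.78-fold. The tight junction count was 5 without DSS + EA mouse 1.

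Crypt and dividing cells showed little net movement. Of 13 crypt stem and Wnt target genes, 2 rose and 2 fell with a median of 0.23, and of 26 cell cycle genes 3 were called higher with a median of 0.41. *Cdca7*, a replication-linked gene of the crypt base, rose from 9.97, 24.1 and 13.1 CPM to 70.6, 62.4 and 59.6 CPM, and *Cd44* fell from 27, 83.4 and 121 CPM to 14.3, 17.6 and 10.8 CPM. *Mki67*, the usual proliferation marker, was not called, and its DSS values of 24.4, 89.3 and 21.8 CPM enclosed those with EA. Without DSS + EA mouse 3 the count of cell cycle calls was 0. Of 13 enteroendocrine genes, 2 rose and 2 fell. The fetal-like programme of the healing epithelium divided, with 1 of 18 genes higher and 8 lower. Its surface marker *Ly6a* (Sca-1), which interferon also induces, was the riser, at 2556, 2019 and 3352 CPM against 1385, 1138 and 1108 CPM in DSS and 311 to 420.0 CPM in the controls. The YAP target *Ctgf* fell by 3.17 on the log2 scale, to 2.99 to 5.71 CPM, which was below all DSS and all control mice.

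Most neutrophil genes tested were lower and most MHC class II genes tested higher. Of 17 neutrophil genes, 0 were called higher and 14 lower, with a median log2 fold change of -4.11. Of 28 monocyte and macrophage genes, 1 rose and 18 fell, with a median of -1.57. Without DSS mouse 3 that median was -0.85 and the lower count 14, and the lower count was 12 without DSS + EA mouse 1 or 2. All 8 dendritic cell and MHC class II genes tested were called, 7 higher and 1 lower. Of 11 T cell, NK cell and intraepithelial lymphocyte genes 5 were called higher, and of 9 B cell and plasma cell genes 4, with 0 lower in either list. The summed levels of both lists overlapped between the groups. The T cell list stood at 159, 87.0 and 103 CPM with EA and at 72.7, 110 and 161 CPM in DSS. The B cell list stood at 1122, 588 and 989 CPM with EA and at 526, 1176.5 and 172 CPM in DSS.

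Neutrophil levels with EA were between those of the other groups. The sum was 1576, 1258 and 1645 CPM with EA, 4745, 26320 and 29961 CPM in DSS and 25.7 to 163 CPM in the controls, and no groups overlapped. *Ngp*, a granule protein of immature neutrophils, fell from 86.5, 1264 and 813 CPM to 3.35, 4.86 and 0.952 CPM (log2 fold change -7.89, SE 1.01, edgeR adjusted p = 0.000706). This was the largest fall of the list. The markers *Ly6g* and *Cxcr2* were not called, with log2 fold changes of -1.64 to -0.92 and -2.22 to -0.87 over the alternatives. *Ly6g* was called lower with the 6 libraries alone, and *Cxcr2* without DSS mouse 1. In the macrophage list, the mannose receptor *Mrc1* fell from 24.1, 49.8 and 31.8 CPM to 7, 10.1 and 8.88 CPM. *Cx3cr1*, carried by resident macrophages, was the member that rose, from 0.643, 1.52 and 0.312 CPM to 6.39, 2.24 and 5.39 CPM. The general marker *Adgre1* (F4/80) was not called (edgeR adjusted p = 0.134), and its DSS mice 1 and 2, at 10.9 and 13.7 CPM, lay next to the DSS + EA mice at 11.2 to 13.4 CPM. Without DSS mouse 1 it was called lower, with an adjusted p of 0.0419.

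MHC class II genes present peptides to helper T cells and are made by dendritic cells, B cells and epithelium under interferon gamma. *H2-Aa* stood at 304, 226 and 295 CPM against 103, 120.4 and 93 CPM (log2 fold change 1.38, SE 0.19, edgeR adjusted p = 0.000989), and the controls at 171 to 213 CPM lay between. *H2-Ab1* rose by 3.53-fold and *Cd74*, the invariant chain, by 2.70-fold. *Ciita*, the master activator of these genes, was at 3.96, 4.48 and 6.98 CPM against 0.643, 1.96 and 0.624 CPM. *Batf3*, needed for cross-presenting dendritic cells, was the gene called lower, at 0.634 to 1.83 CPM against 3.12 to 3.54 CPM, and its call was lost without DSS + EA mouse 2 or 3. *Xcl1*, a lymphocyte chemokine that attracts those dendritic cells, had 19, 10 and 12 counts with EA and 1, 0 and 0 in DSS, at least 5.22-fold higher. The B cell surface gene *Ms4a1* (CD20) had 15, 9 and 25 counts against 0, 3 and 0. In the same list *Cd79a*, *Jchain* and *Mzb1* were not called, and in the T cell list *Cd4* and *Gzma* were not. Of these, only *Mzb1* was called in an alternative, higher without DSS mouse 2. The lymphocyte lists rest on low counts, and their calls numbered 3 in the T cell list without DSS + EA mouse 1, DSS + EA mouse 3 or DSS mouse 1, and 2 in the B cell list without DSS + EA mouse 3 or DSS mouse 3.

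Innate sensor and inflammasome genes were more often called higher than lower with EA. Of 21 innate sensor and inflammasome genes, 11 were called higher and 4 lower, against 17.2% and 18.3% of all genes. The lower count was thus close to the share over all genes. The receptors *Tlr2* and *Tlr4* were not called in the main fit or in any alternative. Over the alternatives the log2 fold change was -1.06 to -0.36 for *Tlr2* and 0.40 to 0.94 for *Tlr4*. *Nlrp6*, an inflammasome sensor of colon epithelium, stood at 77, 71.3 and 65.7 CPM against 10.3, 1.96 and 0.936 CPM (log2 fold change 4.06, SE 0.60, edgeR adjusted p = 0.00131), with controls at 58.5 to 72.2 CPM. *Gsdmd*, which forms the pore of pyroptosis, rose by 2.99-fold and was above all 6 other mice. *Nlrp3*, the sensor of myeloid cells, fell from 5.47, 19.3 and 25 CPM to 2.43, 1.49 and 2.22 CPM, and the controls had 0 counts.

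Among 17 cytokine ligands, 1 was called higher and 6 lower. *Il15*, which keeps intraepithelial lymphocytes alive, was the riser, at 12.5, 13.4 and 10.2 CPM against 2.9, 1.09 and 2.18 CPM. *Il1b* was not called (edgeR adjusted p = 0.23). Its 133, 27.6 and 52.7 CPM with EA overlapped the 36.7, 151 and 269.6 CPM of DSS, and without DSS mouse 1 the adjusted p was 0.046. *Tnf* was not called either (edgeR adjusted p = 0.444). The count of lower cytokines was 3 without DSS + EA mouse 2 or 3. Of 15 NF-kB feedback genes, which this factor switches on to limit itself, 0 rose and 9 fell. *Ier3* was among the 10 lower DEGs with the smallest P, falling from 217, 251 and 197 CPM to 26.8, 37 and 32 CPM, and *Nfkbia*, the inhibitor itself, fell to 117 to 208 CPM from 676 to 1103 CPM. In the acute phase list, 1 of 22 genes rose and 10 fell, and the count of higher genes was 5 without DSS mouse 1. *Cp* (ceruloplasmin) fell from 109, 143 and 104 CPM to 20.7, 30.6 and 20.3 CPM. The antimicrobial lectin *Reg3b* is the case in which DSS mouse 1 decided the outcome. It stood at 23040, 10405 and 12860 CPM with EA and at 13442, 92.6 and 25.9 CPM in DSS, and was not called (edgeR adjusted p = 0.46). Without DSS mouse 1 its log2 fold change was 8.05, with an adjusted p of 0.00396.

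**Figure D3:**
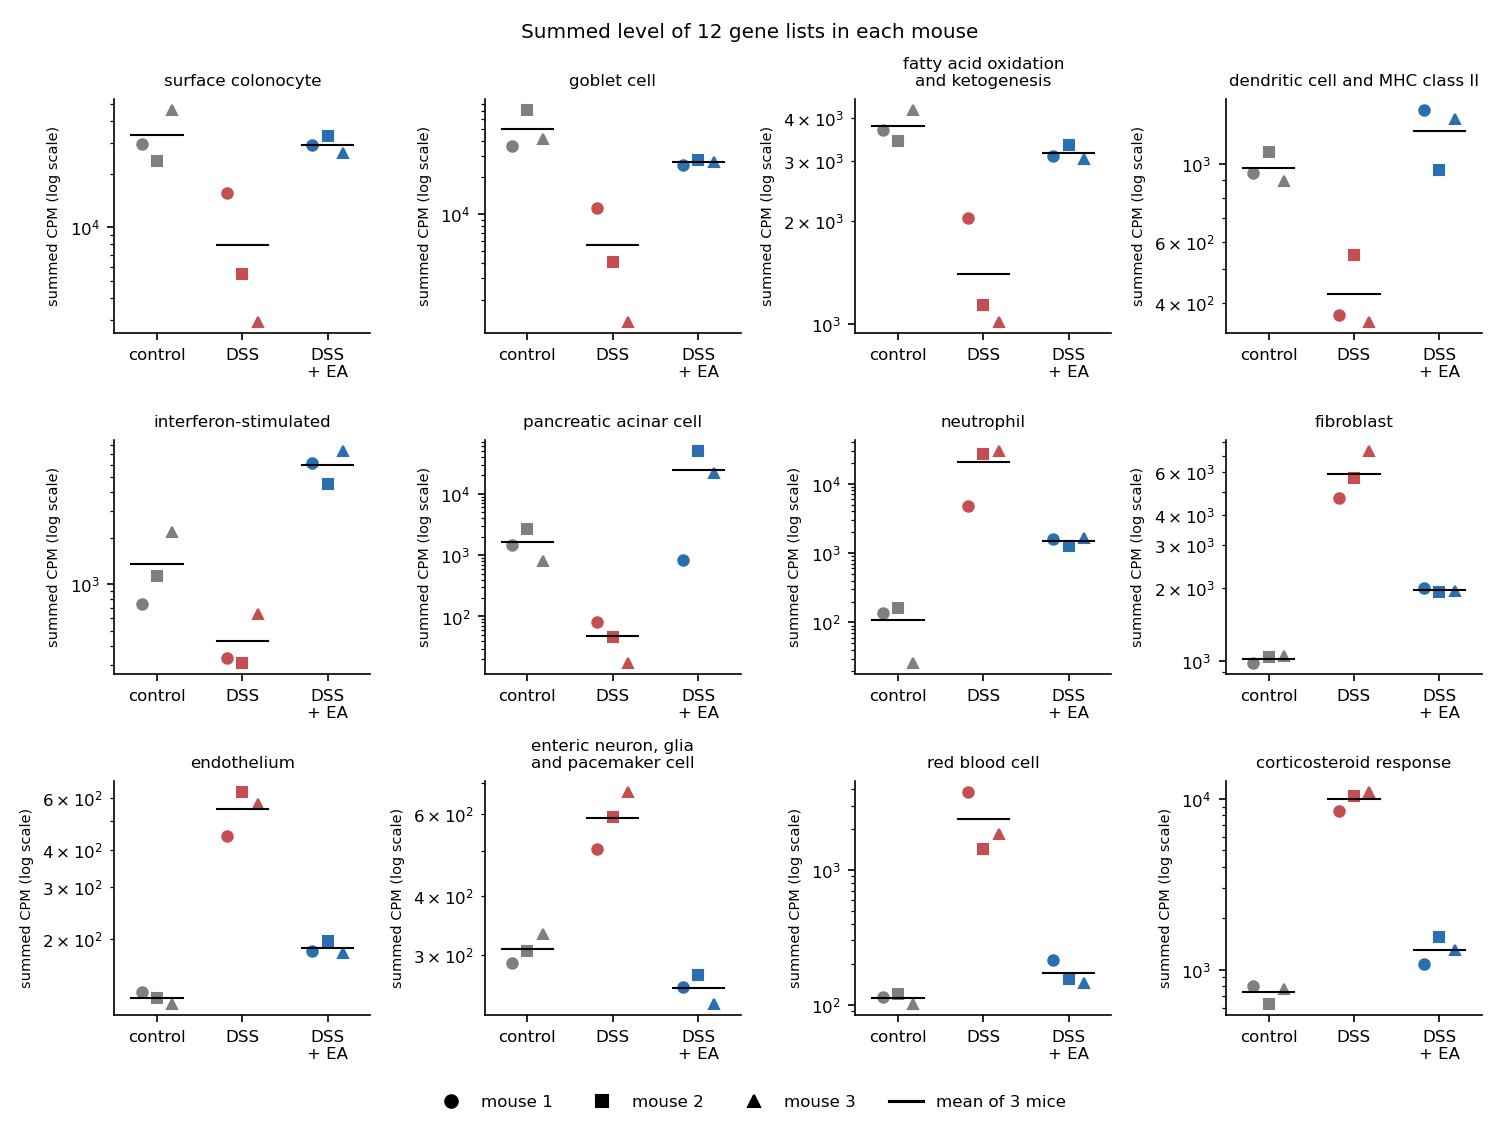
Summed CPM of 12 gene lists in each mouse on log axes, with marker shapes for mouse 1, 2 and 3 of each group and a line at the group mean. The DSS + EA mice lie close together in most lists and spread widely in the pancreatic list, and DSS mouse 1 is nearest to the DSS + EA mice in the epithelial and neutrophil lists.

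Vessels, fibroblasts, nerves and blood all gave lower levels with EA. Of 18 endothelial genes 13 fell, of 21 fibroblast genes 12, of 16 enteric neuron, glia and pacemaker genes 9, and of 5 red blood cell genes all 5, against 18.3% of all genes. In the endothelial, fibroblast and red blood cell lists 0 rose, and in the neuronal list 1 rose. Summed endothelial levels were 182, 196 and 179 CPM against 444, 630.1 and 570.2 CPM in DSS and 120.0 to 132 CPM in the controls. Summed fibroblast levels were 2011, 1936 and 1951 CPM against 4725, 5687 and 7386 CPM, with controls at 978 to 1045 CPM. In both, the 3 groups were apart, with EA between DSS and control.

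*Pecam1*, the junction protein CD31 shared by all vessels, fell from 48.6, 58.7 and 59.3 CPM to 18.6, 20.2 and 18.1 CPM (log2 fold change -1.55, SE 0.19, edgeR adjusted p = 0.00065). *Selp*, the P-selectin that captures leukocytes, fell by more, from 31.5, 105 and 29.6 CPM to 4.57, 4.11 and 2.85 CPM (log2 fold change -3.84). *Dcn* (decorin), a proteoglycan of fibroblasts, fell from 2173, 2253 and 2895 CPM to 561, 673 and 531 CPM (log2 fold change -2.05, SE 0.20, edgeR adjusted p = 0.000282), and *Pdgfra* by 1.66 on the log2 scale. The list of collagen and matrix genes had 0 of 24 higher and 20 lower, with a median of -1.45, and that of matrix proteases and their inhibitors 0 of 22 higher and 19 lower, with a median of -2.16. *Col5a2* fell from 127, 218 and 199 CPM to 46, 57.9 and 52.7 CPM. *Sparc*, a collagen-binding protein, fell from 851, 869 and 902 CPM to 319, 408 and 408 CPM. *Col1a1* was not called, at 68.2, 63.5 and 69.5 CPM against 102, 127 and 83.6 CPM (edgeR adjusted p = 0.0531), and was called without DSS mouse 3. Smooth muscle did not follow. Of its 20 genes 3 rose and 2 fell with a median of 0.30, and *Acta2* was not called at 404, 434 and 399 CPM against 473, 307 and 665 CPM. Without DSS mouse 3, 7 smooth muscle genes were higher.

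Most nerve genes tested fell, and their summed level with EA was below that of the controls. It was 256, 272 and 235 CPM with EA, 504, 591 and 669.7 CPM in DSS and 288 to 331 CPM in the controls. *Vip*, the relaxing and secretory peptide of enteric neurons, fell from 145, 214 and 253 CPM to 52.7, 50.1 and 38.1 CPM (log2 fold change -2.12, SE 0.29, edgeR adjusted p = 0.000852). *Uchl1* (PGP9.5), a marker of all neurons, stood at 32.6, 36.2 and 29.8 CPM, below DSS at 70.8 to 82.7 CPM and below the controls at 50.1 to 63.5 CPM. *Gfap*, of enteric glia, fell to 11, 4 and 5 counts from 19, 30 and 38 counts. *Ano1*, the chloride channel of pacemaker cells, was the member that rose, from 11.3, 11.3 and 6.24 CPM to 18.9, 22 and 20.3 CPM. Of 26 neuroimmune receptors and ligands only 11 passed the filter, with 1 higher and 4 lower. *Ramp1*, a subunit of the CGRP receptor, rose from 20.9, 17.4 and 11.2 CPM to 57.2, 52.7 and 47.3 CPM, and *Npy*, the sympathetic neuropeptide, fell from 9.01, 9.34 and 16.9 CPM to 1.52, 1.49 and 1.27 CPM. *Chrna7*, the nicotinic receptor of the vagal anti-inflammatory reflex, had 0 counts in all 9 mice.

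Haemoglobin RNA marks blood in the tissue. *Hbb-bs*, an adult beta globin, fell from 1761, 746 and 923 CPM to 85.8, 61.3 and 60.9 CPM (log2 fold change -4.04, SE 0.35, edgeR adjusted p = 0.000197), and the controls had 36.8 to 51.5 CPM. *Hba-a2* fell by 3.61 on the log2 scale. Globin genes have near-identical copies, between which the counting could have divided reads.

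Genes of butyrate and fatty acid use rose with the colonocyte genes. Of 28 genes of fatty acid oxidation and ketogenesis, 19 were called higher and 0 lower, with a median log2 fold change of 1.13. *Cpt2*, which brings fatty acids into the mitochondrial matrix, stood at 52.7, 45.9 and 56.1 CPM against 16.4, 8.91 and 9.99 CPM (log2 fold change 2.14, SE 0.25, edgeR adjusted p = 0.000534), overlapping the controls at 49.2 to 58.2 CPM. The count was 8 without DSS mouse 2, 11 without DSS + EA mouse 3 and 12 without DSS mouse 3. The nuclear respiratory chain depended on DSS mouse 1 most of all. Of its 51 genes 16 were called higher and 0 lower, but 45 without DSS mouse 1, and 4 to 6 without DSS mouse 2 or 3 or DSS + EA mouse 1, 2 or 3. *Cycs* (cytochrome c) was called whichever mouse was left out, at 1004, 1094 and 1339 CPM against 615, 398 and 366 CPM. Of the 12 genes tested that the mitochondrial genome itself encodes, 0 were called by edgeR and 0 by DESeq2, 0 had an unadjusted p under 0.05, and the groups overlapped in all 12. Glycolysis and hypoxia genes gave 5 higher and 5 lower, with *Pfkl* the riser of smallest P (1.83) and *Ddit4* the faller (-1.37), both as log2 fold changes. In this list the count of higher genes was 2 without DSS + EA mouse 1 or 3, and that of lower genes 3 without DSS + EA mouse 2.

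Transport, detoxification and sterol genes showed the same sign. Of 21 salt and water transport genes 12 were higher, of 29 xenobiotic and steroid detoxification genes 15, and of 27 sterol and fatty acid synthesis genes 12, with 1 lower. *Kcne3*, a potassium channel subunit of the crypt, was among the tightest, at 153, 155 and 156 CPM against 37, 35.2 and 32.5 CPM (log2 fold change 2.15, SE 0.22, edgeR adjusted p = 0.000337). *Cyp2d26*, a cytochrome P450, stood at 18, 17.9 and 14.3 CPM against 1.61, 0.435 and 0.936 CPM. *Sqle*, an enzyme of cholesterol synthesis, stood at 56, 56.4 and 71.4 CPM against 21.3 to 29.6 CPM. Its values were also above those of all 3 controls, 35.6 to 41.9 CPM. The transport count was 5 without DSS mouse 2, DSS + EA mouse 1 or DSS + EA mouse 3, 6 without DSS + EA mouse 2 and 7 without DSS mouse 3. The detoxification count was 24 without DSS mouse 1 and 5 to 9 without any other mouse, and the sterol count 4 without DSS + EA mouse 3 and 6 without DSS mouse 2.

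Both metallothioneins and most clock genes tested were lower with EA. *Mt2*, a cysteine-rich protein that binds zinc and is induced by metals and by corticosteroids, fell from 2457, 3299 and 3506 CPM to 155, 232 and 189 CPM (log2 fold change -4.01, SE 0.28, edgeR adjusted p = 0.00011). *Mt1*, its neighbour, fell from 5041, 6258 and 6749 CPM to 459.9, 776 and 683 CPM (log2 fold change -3.23, SE 0.28, edgeR adjusted p = 0.000166). The controls had 36.2 to 59.5 CPM of *Mt2* and 216 to 332 CPM of *Mt1*, so that the DSS + EA mice lay between the groups for both. Of 15 corticosteroid response genes 2 rose and 8 fell, with a median of -1.65, and metallothioneins made up most of the list's summed level. *Tsc22d3* (GILZ), a direct target of the glucocorticoid receptor, fell from 103, 55.8 and 134 CPM to 29.2, 31 and 32.4 CPM. *Fkbp5*, likewise a direct target, was not called, at 28, 66.1 and 31.4 CPM against 76.6, 61.7 and 28.7 CPM.

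Of 12 clock genes tested, 0 rose and 7 fell. *Per1*, a clock repressor that corticosteroids also induce, fell from 45, 47.8 and 58.7 CPM to 3.35, 4.48 and 2.22 CPM (log2 fold change -3.91, SE 0.50, edgeR adjusted p = 0.000688), and the controls had 0 to 2.8 CPM. *Nr1d1* (REV-ERB alpha) fell from 58.9, 34.1 and 37.8 CPM to 10.7, 11.6 and 17.8 CPM. *Arntl* (BMAL1), which peaks in the opposite phase to *Nr1d1*, was not called, at 14.3, 6.35 and 11.1 CPM against 10.9, 14.3 and 10.6 CPM. The hour of sampling is not in the sources used here, and its part was not tested. Of 10 immediate early genes 6 fell, a count of 3 without DSS + EA mouse 2. *Egr1* fell from 24.1, 47.8 and 19.7 CPM to 3.65, 5.23 and 2.54 CPM, whereas *Fos* was not called (log2 fold change 0.12).

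The lower DEGs with the smallest P also held signalling genes outside most of the lists. *Sphk1*, the kinase that makes sphingosine 1-phosphate, fell from 47.6, 90.6 and 59 CPM to 3.04, 3.36 and 2.85 CPM (log2 fold change -4.40, SE 0.31, edgeR adjusted p = 0.00011). *Pde4b*, the phosphodiesterase of inflammatory cells that breaks down cyclic AMP, fell from 69.2, 107 and 95.5 CPM to 7.91, 8.22 and 8.25 CPM. *Dennd5b* and *Smim3* fell with log2 fold changes of -3.14 and -2.65, both with all 3 DSS + EA mice below all 3 DSS mice. On the higher side stood *Trmt1l*, a tRNA methyltransferase, at 15.2, 13.4 and 16.5 CPM against 0.643, 1.3 and 0.624 CPM, *Isoc2b* with a log2 fold change of 3.02, and *Gmppb*, which makes GDP-mannose for glycosylation, with 2.67. *Gmppb* was also above all 3 controls, which had 42.4 to 56.9 CPM.

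**Figure D4:**
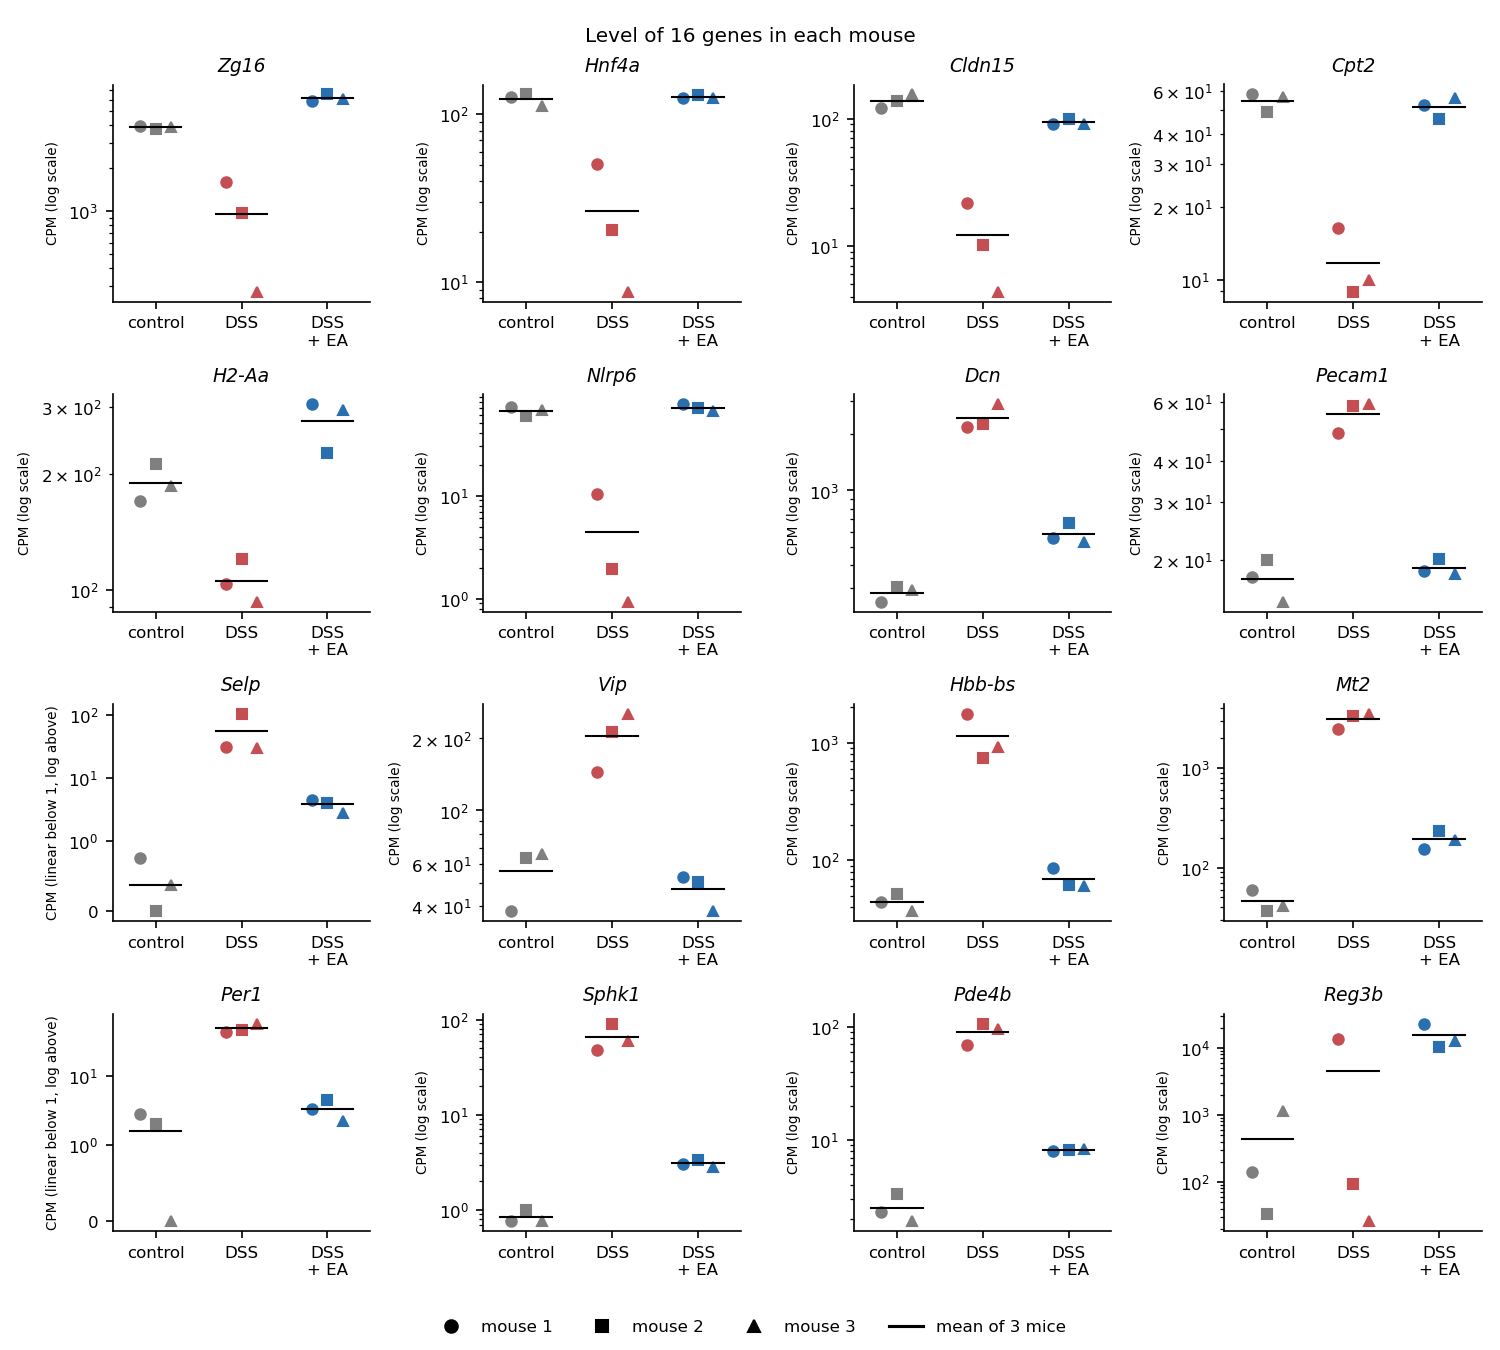
CPM of 16 named genes in each mouse on log axes, 3 mice a group, with marker shapes for mouse 1, 2 and 3 and a line at the group mean. *Hnf4a*, *Cldn15* and *Cpt2* are higher with EA than with DSS, *Dcn*, *Pecam1*, *Vip*, *Hbb-bs* and *Mt2* lower, and *Reg3b* in DSS mouse 1 lies with the DSS + EA mice.

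Protein synthesis and stress lists were close to or below the background in their calls. Of 81 cytosolic ribosomal protein genes 1 was higher and 3 were lower. The groups did not overlap in 38 with EA below DSS and in 4 with EA above. Most ribosomal protein genes without overlap were thus lower with EA, and the median log2 fold change of the list was -0.23. Over all genes, 47.4% did not overlap, but this share adds both directions, and that of each direction is not given here. With library totals in place of TMM, 15 ribosomal protein genes were called lower, with a mean of at least 20 counts 13, and with no filter 0. Of 21 endoplasmic reticulum stress and amino acid response genes 5 rose and 3 fell. The chaperone *Pdia4* rose from 39.2, 36.7 and 36.2 CPM to 122, 91.5 and 143 CPM, and the cystine carrier *Slc7a11* fell from 14.2, 50.6 and 111 CPM to 4.26, 7.47 and 6.03 CPM. The higher count was 2 without DSS + EA mouse 3 or DSS mouse 3 and 3 without DSS + EA mouse 1 or DSS mouse 1. In the list of genes that mark position along the gut, 4 were tested and 2 called higher. *Fabp6*, a bile acid carrier of the ileum, stood at 77, 154 and 27.6 CPM against 13.5, 2.61 and 4.37 CPM, and the controls had 4.99 to 13.8 CPM. *Hoxb13*, of the distal colon, was not called (edgeR adjusted p = 0.226).

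The remaining lists were short or mixed. Of 27 chemokine ligands 3 were called higher and 13 lower, with a median of -1.07, and of 13 prostaglandin and leukotriene genes 1 was higher and 5 lower. *Ptges*, the terminal synthase of prostaglandin E2, fell from 37, 79.7 and 62.1 CPM to 10.3, 11.6 and 7.61 CPM. Of 5 tuft cell genes tested 2 were higher, of 6 fat tissue genes 1 was higher and 1 lower, of 1 squamous epithelial gene tested 1 was lower, and of 4 sex-linked genes 1 was higher. Of 3 mast cell and eosinophil genes 0 were called by edgeR and 0 by DESeq2, with 0 at an unadjusted p under 0.05.

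Loci that the submitters list as new genes fell more often than known genes. Of 1061 such loci tested, 42.8% were called lower and 11.9% higher, with a median log2 fold change of -1.0, against 15.9% lower and 17.5% higher among the 11181 known genes. They took 5.26 to 6.09% of all counts in the DSS mice, 3.17 to 3.23% in the DSS + EA mice and 3.53 to 4.67% in the controls. A pair of loci picked after their values were seen show the size of the fall. ONT.1758 fell from 59.5, 69.1 and 93.6 CPM to 3.04, 1.87 and 3.81 CPM, and ONT.8539 from 291, 288 and 338 CPM to 41.1, 31 and 34.3 CPM. Transcript length moved with the calls as well. An annotated length was at hand for 11180 of the 12566 genes tested, 1962 of the 2162 called higher and 1777 of the 2295 called lower. Among these, the longest transcript had a median of 2839.5 bases in the genes called higher and 3786 bases in those called lower. The median over all tested genes with a length was 3282.5 bases. The part of length, or of RNA integrity, in the calls was not tested.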

How the data were processed

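Total RNA of 9 mouse colons, 3 a group with 1 library each, was read as PCR-amplified cDNA on a Nanopore instrument. The authors deposited raw gene counts, which are whole numbers and not normalized. The processing notes of the labels name the genome build mm10, and the aligner, the counting tool and the use of strand are not given in the sources used here, so reads of near-identical, overlapping or antisense genes may have been divided between them. Of 27733 lines, 14 held no counts and were skipped, and 5620 of the 27719 genes had no count in any library. The positions and transcript lengths used are those of GENCODE M21.

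Libraries held 2627695 to 4235576 counts, so that the floor of 3 counts used for lower bounds corresponded to 0.708 to 1.14 CPM. PCR copies were not told apart from molecules, and floors cover counting error only. The test was that of edgeR 4.0.16 in R 4.3.3 (TMM, filterByExpr by group, quasi-likelihood F statistic), from a fit over all 9 libraries with the group as term, so that the controls added to the estimate of the spread. The contrast was DSS + EA minus DSS. SE is the log2 fold change divided by the square root of F. Each gene list was described by its calls and median, and no set test was made. Alternatives were DESeq2 1.42.0 (the tool of the study's methods), RLE or library totals, a stricter or no filter, the 6 libraries alone, a replicate block and each mouse left out. On simulated counts with 200 changed genes, the edgeR fit called 85% of those with a log2 change of 2 and 89% with 3. It called 0 in the wrong direction, and 9 of the unchanged genes. The 200 were among 12566 genes and changed up and down in equal number, whereas 35.5% of genes were called in the data. The simulation therefore did not test the fit under so wide a shift.

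Labels number the mice 1 to 3 in each group, but these are different animals. The sources used here do not say whether mice were housed or handled apart, by number or by group. The p-values set the group difference against a spread between mice that was estimated over all 9 libraries. A batch that went with the groups could not be told apart from EA. The comparison, the lists and their genes were chosen with earlier results of these data known. Genes named are the first 4 of each list, the called gene of smallest P in each direction of a list, and the 10 DEGs of smallest P in each direction whose groups do not overlap. The other interferon list members, the interferon ligands and receptors, *Reg1* and the ONT loci were chosen after their values were seen. Figures were drawn with Python 3.11.15, pandas 2.3.3 and matplotlib 3.10.9. Human samples and protein measurements of the study were not analysed here. Some genes of the lists are counted in them but not reported here by name.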

Additional observations from a re-analysis of the deposited data

How the results depend on the processing

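The comparison gave 4457 genes called and 806 DEGs (366 higher, 440 lower), and no named gene that was called changed sign in any alternative, while genes that were not called, such as *Mki67* and *Tnf*, did. Lower calls outnumbered higher ones (2295 against 2162) except without DSS mouse 1 (3011 against 3050). DESeq2 gave 1274 DEGs, of which 762 were lower. A mean of at least 20 counts left 515 DEGs (223 higher, 292 lower), since fewer genes were tested, and no filter gave 1519 (611 higher, 908 lower). The 6 libraries alone gave 1441 genes called higher, with fewer samples to estimate the spread. Leaving out each mouse in turn gave 3033 to 6061 genes called, 1410 to 3050 higher and 1623 to 3011 lower, and 757 to 1343 DEGs, 351 to 640 higher and 399 to 703 lower. The highest DEG counts came without DSS mouse 1 (1343, with 640 higher and 703 lower), and the fewest higher calls without DSS + EA mouse 3 (1410). Apart from the fewer genes or samples named, the cause of these shifts was not tested. Same-numbered mice of the 2 groups deviated with correlations of -0.159, -0.160 and 0.105, not every mouse correlated best with its own number, and so the numbers were not taken to pair them. With a replicate block, 3829 genes were called (1911 higher, 1918 lower) and 783 were DEGs. Of 229 named genes, 9 lost their call with the block, 18 with the 6 libraries alone and 3 with DESeq2. Leaving out DSS + EA mouse 1, 2 or 3 lost 23, 20 and 26 calls and DSS mouse 1, 2 or 3 lost 2, 21 and 14, while 25 were gained without DSS mouse 1. Low counts kept many genes of short lists out of the test, with 1 of 13 squamous, 3 of 13 mast cell and eosinophil, 4 of 12 gut position, 5 of 14 tuft cell and 11 of 26 neuroimmune genes tested.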

Other observations

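*Uty*, a gene of the Y chromosome, had 28, 20 and 20 counts in the DSS + EA mice and 5 in each DSS mouse (log2 fold change 2.39, SE 0.40, edgeR adjusted p = 0.00228), while the Y-linked *Ddx3y* was not called (log2 fold change -0.58, edgeR adjusted p = 0.0939). *Cidec*, of fat droplets, rose with a log2 fold change of 2.01 while *Fabp4*, of fat cells and vessels, fell from 115, 135 and 134 CPM to 45.7, 63.1 and 60.9 CPM, and the call of *Cidec* was lost without DSS mouse 2. The new locus ONT.15526, picked after its values were seen, went from 0.965, 4.35 and 3.43 CPM in DSS to 59.7, 59.0 and 45.4 CPM with EA, with 89.4 to 104 CPM in the controls.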
